A study of Homo sapiens with 8 samples.

Results

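The chromosome 9p21 locus holds most of the human type I interferon genes at one end and the cell-cycle inhibitor genes CDKN2A and CDKN2B at the other. Listed ATAC-seq peaks were examined across the locus in 2 human lung cancer cell lines. A set of 9 protein-coding genes, of 20056 in the RefSeq gene table of GRCh38.p14, was taken as members: IFNB1, IFNW1, IFNA1, IFNE, KLHL9, MTAP, CDKN2A, CDKN2B and DMRTA1. The window ran from 50 kb before the lowest gene start to 50 kb after the highest gene end, chr9:21027104-22505740 (1.48 Mb, GRCh38). It held 47 annotated genes, of which 21 were protein-coding and 16 of those were interferon genes, with 7 long non-coding RNA genes and 17 pseudogenes. Peaks of the 8 lists that overlapped by at least 1 bp were merged into 69 regions in the window, of 69131 across all lists. Of these, 50 had a peak in both replicates of at least 1 group.

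ATAC-seq measures open chromatin through the sites where a transposase inserts sequencing adapters. The lines H1975 and HCC44, both labelled as lung cancer cells of WT genotype, received either the solvent DMSO or ACBI1, at a labelled dose of 1 mM, for 96 h, and each of the 4 groups had 2 replicates. The compound ACBI1 targets for degradation the SWI/SNF ATPases SMARCA2 and SMARCA4 as well as PBRM1, another subunit of these chromatin remodellers. The title of the series links SMARCA4-mutant lung cancer to the STING pathway. The labels did not say whether replicates came from separate cultures, so the spread between them may be technical, and each line stands for itself and not for a type of tumour.

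Type I interferons are secreted proteins that cells make when sensors such as cGAS-STING or RIG-I detect nucleic acids, and they act through the receptor chains IFNAR1 and IFNAR2. Their genes are short, lie close together and are mostly without introns, and many are near-identical copies. CDKN2A encodes p16INK4a and, from an upstream start and a shared exon read in another frame, p14ARF, while CDKN2B encodes p15INK4b. The INK4 proteins inhibit CDK4 and CDK6, ARF restrains MDM2, and the neighbouring MTAP encodes the methionine salvage enzyme methylthioadenosine phosphorylase. The stretch around CDKN2A is deleted in many cancers, often together with MTAP and sometimes with the interferon genes.

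The sequences just upstream of the starts differed in composition between the interferon genes and the other members. The 250 bases before 6 starts are shown, picked with the peaks known. IFNB1 and IFNA1 had no peak at the start in any list, and the other 4 starts had one in all 8 lists. Whether sequence has a part in that difference was not tested. The letters are RefSeq sequence of GRCh38.p14, written 5′ to 3′ on the gene's strand up to the base before the start. Capitals mark matches, on either strand, to the GC box (GGGCGG), the CCAAT box (CCAAT), the TATA box (TATAAA), the NF-kB motif (GGGA and TTCC with any 2 bases between), the interferon response motif (GAAA repeated after any 2 bases) and the AP-1 motif (TGANTCA), and in these sequences no matches overlapped each other.
IFNB1, chr9:21077943-21078192, minus strand: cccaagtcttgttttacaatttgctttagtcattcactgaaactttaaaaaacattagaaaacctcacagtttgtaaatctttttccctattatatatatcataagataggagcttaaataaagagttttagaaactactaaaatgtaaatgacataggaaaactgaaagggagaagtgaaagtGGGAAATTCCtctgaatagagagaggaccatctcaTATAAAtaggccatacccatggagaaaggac
IFNA1, chr9:21440189-21440438, plus strand: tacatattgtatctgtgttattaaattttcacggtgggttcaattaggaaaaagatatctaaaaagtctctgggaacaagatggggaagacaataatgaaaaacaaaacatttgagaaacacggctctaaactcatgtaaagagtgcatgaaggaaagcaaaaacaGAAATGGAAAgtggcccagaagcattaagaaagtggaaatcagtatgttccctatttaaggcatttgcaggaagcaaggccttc
MTAP, chr9:21802386-21802635, plus strand: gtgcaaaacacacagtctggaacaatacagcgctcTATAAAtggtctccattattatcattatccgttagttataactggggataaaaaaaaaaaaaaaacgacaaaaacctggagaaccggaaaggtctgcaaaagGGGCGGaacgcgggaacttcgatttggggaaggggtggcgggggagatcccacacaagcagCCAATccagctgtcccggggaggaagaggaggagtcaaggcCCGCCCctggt
CDKN2A, p16INK4a start, chr9:21974858-21975107, minus strand: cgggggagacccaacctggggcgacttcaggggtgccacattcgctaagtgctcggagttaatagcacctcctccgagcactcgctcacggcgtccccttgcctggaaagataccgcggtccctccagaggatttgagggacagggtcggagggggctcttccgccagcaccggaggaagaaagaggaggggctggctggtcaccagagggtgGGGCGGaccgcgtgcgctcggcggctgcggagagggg
CDKN2A, p14ARF start, chr9:21995325-21995574, minus strand: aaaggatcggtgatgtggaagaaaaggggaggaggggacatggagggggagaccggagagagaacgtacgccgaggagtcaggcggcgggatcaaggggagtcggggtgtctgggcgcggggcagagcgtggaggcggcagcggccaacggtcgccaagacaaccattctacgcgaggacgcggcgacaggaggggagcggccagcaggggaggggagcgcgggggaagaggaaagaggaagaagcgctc
CDKN2B, chr9:22009306-22009555, minus strand: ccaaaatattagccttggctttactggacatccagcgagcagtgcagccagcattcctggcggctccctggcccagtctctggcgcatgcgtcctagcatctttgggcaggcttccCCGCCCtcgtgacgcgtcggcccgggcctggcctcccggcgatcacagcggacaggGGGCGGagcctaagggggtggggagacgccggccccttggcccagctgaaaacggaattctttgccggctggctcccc

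IFNB1, a sensor-induced interferon of most cell types, held a TATAAA match and an NF-kB match, GGGAAATTCC, and 32.4% of its bases were G or C. The NF-kB motif was found in 1.35% of all 22132 promoter sequences of the same length, and TATAAA in 8.996%. IFNA1 held an interferon response match, a motif found in 2.71% of all promoters. Across the 13 interferon genes of the window that were in the promoter table, G and C made up 29.6% to 38% of the bases, there were 0 to 2 CpG dinucleotides, and none held a GC box. Across the 6 starts of the other members, G and C made up 50% to 66.8%, there were 11 to 24 CpG dinucleotides, and 4 held a GC box, which was in 53.7% of all promoters. The remaining motifs were found in 32.7% (CCAAT) and 5.35% (TGANTCA) of all promoters. A match is a description of the letters and not a measured binding site. A missing match says only that these letters are not in this window.

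Peaks at gene starts separated the members by family. The start window was 1 kb either side of a start given by the RefSeq promoter table, of the gene's own 5′ end where that table had only starts further inside, or of either gene end for IFNW1, which was not in it. KLHL9, an adaptor of a CUL3 ubiquitin ligase, MTAP, CDKN2A, CDKN2B and DMRTA1, a DM-domain transcription factor gene, had a start peak in all 8 lists, at both starts in the case of CDKN2A. These were 5 of 9 members, against 57.6% of the 15843 protein-coding genes in the promoter table. IFNB1, IFNW1, IFNA1 and IFNE, an interferon of epithelial surfaces, had none in any list, as did 30.4% of protein-coding genes. In HCC44 the number with a start peak in all 4 lists was 3 when only peaks with a fold enrichment of at least 5 were kept.

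The absence extended over the interferon genes of the window. None of the 16 interferon genes in the window had a peak at the start or in the gene body in any of the 8 lists. Only IFNA14 and IFNA8 had a peak within 5 kb, in 1 list each. The peak nearest to the IFNB1 start lay 20.8 kb and 7.44 kb away in H1975 with DMSO, 46.2 kb away in both lists with ACBI1, 7.41 kb and 7.38 kb away in HCC44 with DMSO, and 33.0 kb and 46.2 kb away with ACBI1. The nearest peaks were thus closer in both DMSO lists than in both ACBI1 lists of each line. In H1975 the DMSO distances came from different peaks, each found in only 1 H1975 list. That of DMSO 2 was among the weakest 2.45% of its list. In HCC44 both came from chr9:21070191-21070563. The ACBI1 lists were also shorter, and no share of genes with this order is given here. For IFNA1 the distance was 104.9 kb in every H1975 list and 47.8, 13.9, 14.998 and 5.45 kb in HCC44 (DMSO 1 and 2, then ACBI1 1 and 2). IFNW1 ranged from 12.0 to 108.9 kb and IFNE from 23.2 to 76.9 kb. How reads that match several near-identical interferon genes were placed is not given in the sources used here, and its part in these absences was not tested. A missing peak is not a measurement of closed chromatin.

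Start-site peaks followed the CpG content of promoters in the series as a whole. Across promoter sequences ordered by their number of CpG dinucleotides and divided at the quartiles (5, 16 and 25), the share with a start peak in all 8 lists was 8.23%, 49.5%, 75.3% and 77.0%. All 13 interferon promoters lay in the lowest of these classes. MTAP (11) and DMRTA1 (13) lay in the next, KLHL9 (16) on its upper edge, and the CDKN2B (18) and the CDKN2A starts (20 for p16INK4a and 24 for p14ARF) in the class above. This is a description across genes, which are not independent samples.

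The strongest start peak among the members was that of CDKN2B. Strength was read as the authors' −log10 q, ranked within a list as the percentage of that list's peaks with a lower or equal value, since q and fold enrichment also depend on each library. The −log10 q of the CDKN2B peak was 161 and 150 in H1975 with DMSO, 198 and 121 with ACBI1, 90.4 and 81.3 in HCC44 with DMSO, and 81.2 and 78.8 with ACBI1. Its percentile was 98.0, 97.1, 96.8 and 90.7 in the H1975 lists and 97.3, 98.2, 96.6 and 97.5 in the HCC44 lists, in the same order. The peak was narrow, 876 to 996 bp wide, and its percentile was above that of every other start peak of the window in each of the 8 lists. The percentile ranged from 69.4 to 86.8 for DMRTA1, from 58.6 to 87.9 for KLHL9, from 47.5 to 84.3 for MTAP and from 55.2 to 79.6 for the p16INK4a start, and these 4 ranges overlapped.

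The 2 CDKN2A starts, 20467 bp apart, carried separate peaks of different shape. At the p14ARF start the peak was 1828 to 2566 bp wide and also covered the start of the antisense RNA gene CDKN2B-AS1 (ANRIL), which begins 533 bp away on the other strand, so the peak cannot be split between them. Its percentile ranged from 45.0 to 67.7. The p16INK4a peak was 1051 to 1407 bp wide. In H1975 its percentile was 75.2 and 71.9 with DMSO and 64.1 and 55.2 with ACBI1, above the p14ARF start (67.7 and 60.6, then 65.3 and 53.6) in 3 of 4 lists. In HCC44 it was 79.6 and 69.7 with DMSO, above the p14ARF start (51.9 and 45.0), and 58.0 and 59.5 with ACBI1, where the p14ARF start stood at 59.4 and 59.2. The lists differ in length, so these ranks describe each list. Their differences between treatments cannot be read as a change, or as a lack of one, at a start.

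**Figure D1:**
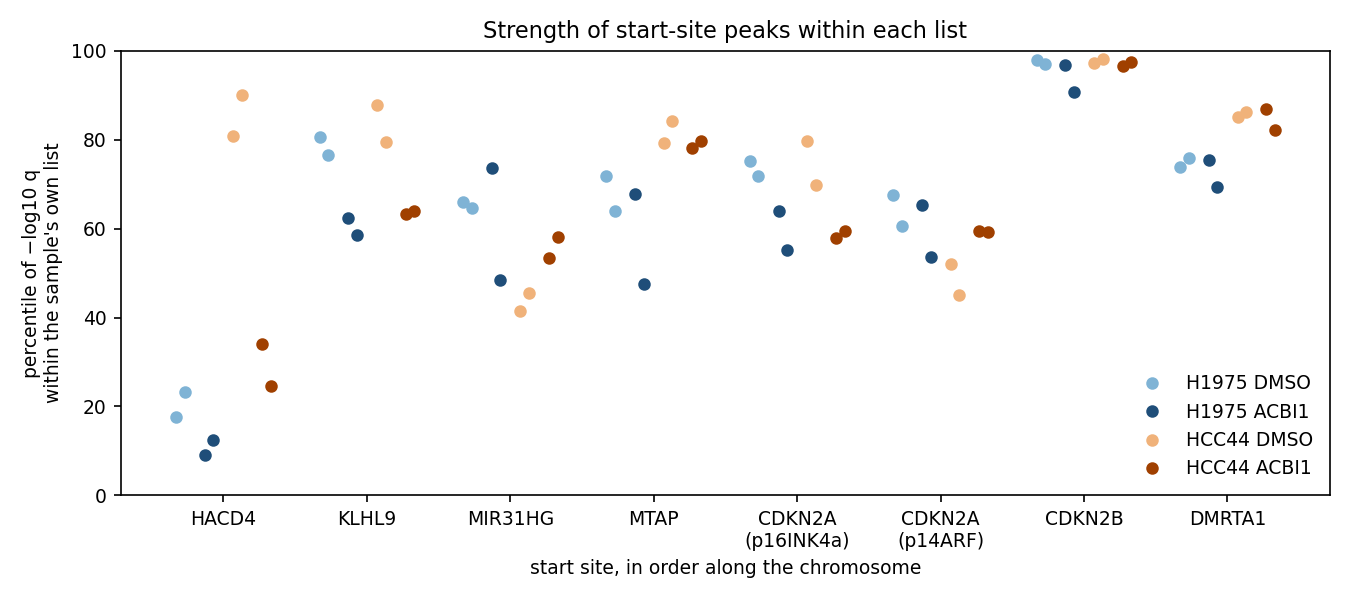
Within-list percentile of −log10 q (vertical axis, %) of the peak at each start site of the window, in order along the chromosome, with 1 point per list coloured by line and treatment. CDKN2B lies between 90.7 and 98.2 in all lists, while the peak of HACD4, at the edge of the window, ranges from 9.09 to 90.1.

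Fewer peaks were listed across the window with ACBI1 than with DMSO in both lines. With DMSO, H1975 lists held 32 and 27 peaks in the window, and with ACBI1 23 and 16. The HCC44 lists with DMSO held 52 and 54, and those with ACBI1 29 and 28. The groups did not overlap within either line. Covered length was 20.7 ± 2.42 kb with DMSO and 14.96 ± 4.04 kb with ACBI1 in H1975 (SD, n = 2), and 41.9 ± 3.99 kb and 22.7 ± 1.35 kb in HCC44. ACBI1 minus DMSO in peak number was −10 for H1975 (pooled SD between replicates 4.30; exact permutation test, two-sided, p = 0.333) and −24.5 for HCC44 (pooled SD 1.12; exact permutation p = 0.333), and 0.333 is the smallest p that 4 samples allow. Without H1975 ACBI1 2, the shortest list, the H1975 difference was −6.5. Over both lines it was −17.25 (pooled SD 3.14), with an exact permutation p of 0.0556, the smallest that its 36 arrangements allow. The HCC44 change differed from the H1975 change by −14.5 peaks. Shuffling treatment labels within each line gave an exact permutation p of 0.333 for this difference. Such shuffling assumes no change in either line, so the p does not test whether the changes were equal.

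The lists as a whole shortened as well. Those of H1975 held 43525 and 41027 peaks for DMSO, then 27682 and 22133 for ACBI1. In the same order the HCC44 numbers were 50347 and 49945, then 26313 and 24862. The window had 33.9% fewer peaks with ACBI1 in H1975, where the list had 41.1% fewer, and 46.2% fewer in HCC44, where the list had 49.0% fewer. With every list limited to its 22133 strongest peaks, the difference in the window was −2.5 in H1975, 3.5 in HCC44 and 0.5 over both lines, so its direction turned in HCC44 and over both lines. The reduction in the window was in proportion no larger than that of the whole lists. Depth in reads is unknown, and its part in either was not tested.

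**Figure D2:**
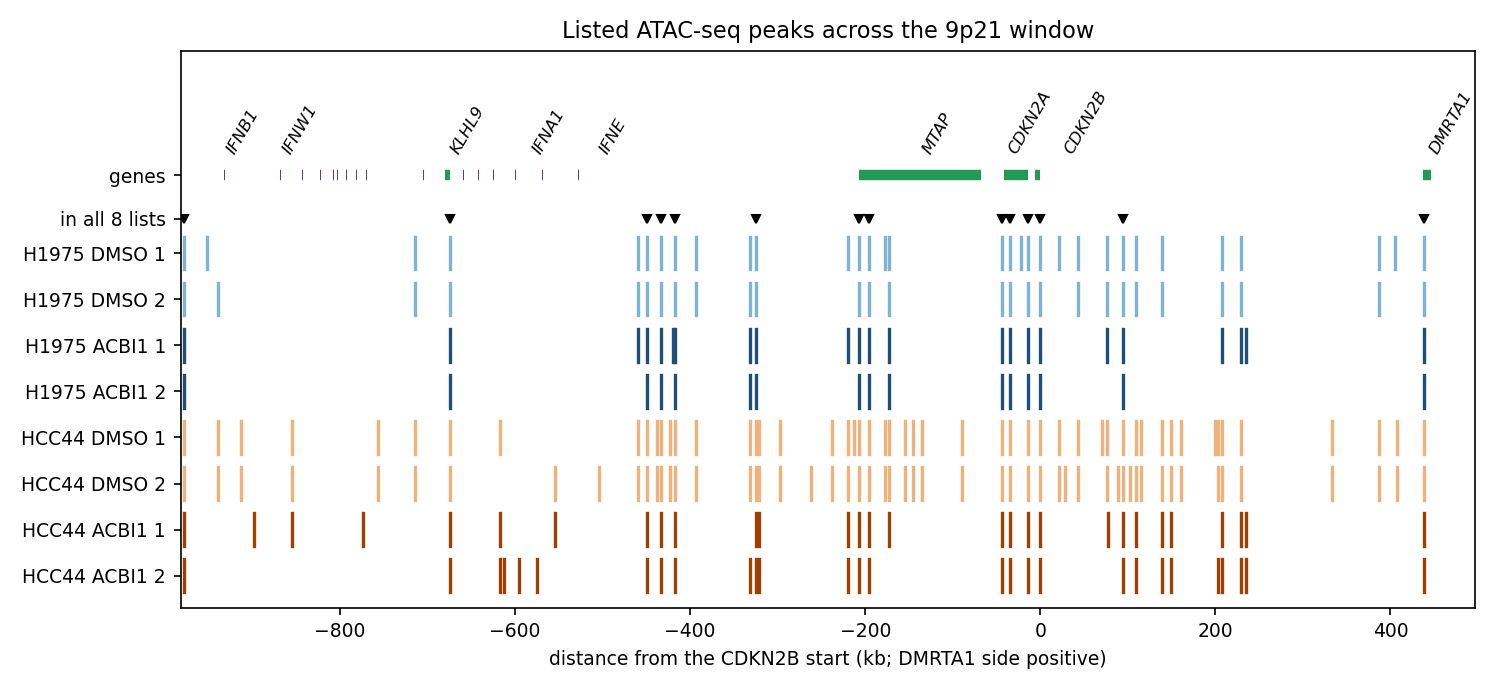
Merged regions in which each list has a peak, marked at their centre as distance from the CDKN2B start in kb (horizontal axis, DMRTA1 side positive), with 1 row per list and 1 colour per group, gene bodies above (members named, other interferon genes as thin purple marks) and triangles at the 14 regions with a peak in all 8 lists. No interferon gene has a peak at its start in any row, and the HCC44 DMSO rows are the densest, from 52 and 54 peaks.

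Each peak was assigned to the nearest member, which gives the number of peaks per member and list. By this assignment the groups separated for CDKN2B and not for CDKN2A, which lies between MTAP and CDKN2B and so collects few peaks. Counted within 50 kb of the gene body, both genes had 6, 7, 4 and 4 peaks in HCC44 (DMSO 1 and 2, then ACBI1 1 and 2). In H1975 CDKN2A then had 6, 4, 4 and 4, and CDKN2B 7, 5, 4 and 4. CDKN2B had 8 and 7 peaks in H1975 with DMSO and 4 and 2 with ACBI1, and 14 and 15 in HCC44 with DMSO and 7 and 7 with ACBI1. Its groups were separate in both lines, and all of its 18 regions other than the one at the start lay outside the gene, in the body of CDKN2B-AS1 or beyond it. CDKN2A had 4 and 3 peaks in H1975 with DMSO and 3 in each of the other 6 lists. Its groups overlapped in both lines. MTAP had 7 and 5 peaks in H1975 with DMSO and 6 and 5 with ACBI1, and 15 and 15 in HCC44 with DMSO and 6 and 6 with ACBI1. The MTAP groups overlapped in H1975 and were separate in HCC44.

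For the interferon members other than IFNE the counts were low. IFNB1 had 2 peaks in both DMSO lists and 1 in both ACBI1 lists of H1975, and 3 and 1 in HCC44 in the same order. The peak left in the ACBI1 lists was that at the HACD4 start, 45.4 kb from IFNB1. In H1975 the other DMSO peak was a different region in each replicate, so no region assigned to IFNB1 counted as lost there. IFNE had 5 and 5, then 5 and 3, in H1975 and 7 and 8, then 3 and 3, in HCC44, all of them at least 23.2 kb from its start. IFNA1 had 0 in every H1975 list, 1 and 1 in HCC44 with DMSO and 2 and 4 with ACBI1, so it alone among the 9 members had more peaks in both ACBI1 lists than in both DMSO lists of a line. Counted within 50 kb of the gene body its numbers were the same, and more peaks in both ACBI1 lists were found for 1.79% of 19974 protein-coding genes in HCC44 and for 1.45% in H1975. The 5 regions behind that count did not repeat well: 3 were in the list of HCC44 ACBI1 2 alone, 1 was in 1 list of each treatment, and 1, chr9:21392185-21392845, was in both ACBI1 lists and in DMSO 1. IFNW1 had 0 in every H1975 list and 1, 1, 2 and 0 in the HCC44 lists.

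KLHL9 lies within the interferon cluster and DMRTA1 at the far end of the window. KLHL9 had 2, 2, 1 and 1 peaks in H1975 (DMSO 1 and 2, ACBI1 1 and 2) and 3, 3, 2 and 1 in HCC44. DMRTA1 had 4, 3, 3 and 1 in H1975, where the groups overlapped, and 5, 5, 3 and 3 in HCC44. By this assignment 3 members had fewer peaks in both ACBI1 lists and 6 overlapped in H1975, while in HCC44 6 had fewer, 1 had more and 2 overlapped. The whole lists were shorter with ACBI1, by 41.1% (H1975) and 49.0% (HCC44). No share over all genes is given here for this assignment, so the counts do not set the members apart.

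**Figure D3:**
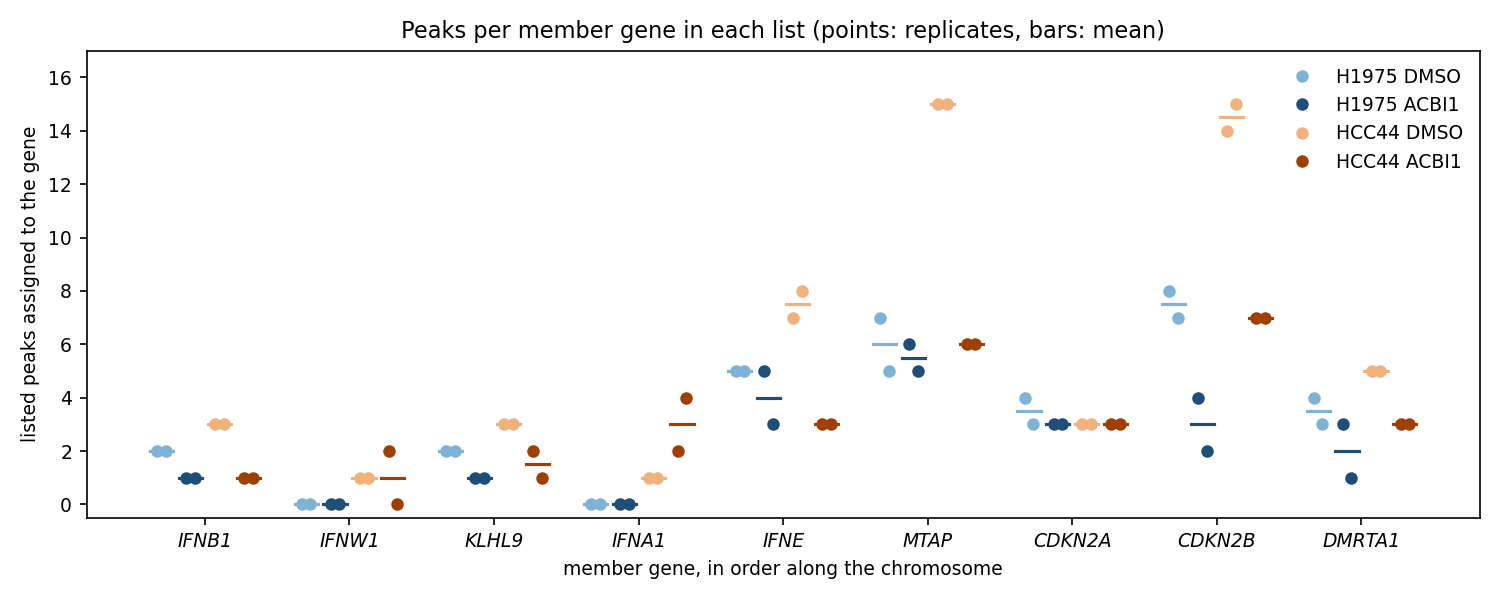
Number of listed peaks assigned to each member as the nearest gene (vertical axis, peaks per list), in order along the chromosome, with points for replicates and a bar at the mean of each group of 2. MTAP and CDKN2B in HCC44 with DMSO stand highest, at 15 and 15 and at 14 and 15 peaks, and IFNW1 and IFNA1 are at 0 in every H1975 list.

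Counted within 50 kb of the gene body, so that all genes could be read in the same way, 3 of 9 members (IFNB1, KLHL9 and CDKN2B) had fewer peaks in both ACBI1 lists of H1975, against 43.4% of 19974 protein-coding genes. In HCC44 6 of 9 did (IFNB1, KLHL9, MTAP, CDKN2A, CDKN2B and DMRTA1), against 55.3% of protein-coding genes. Both counts were near their background, and several of these neighbours share peaks. The IFNB1 order in H1975 rested on peaks that did not repeat between its DMSO lists. Of the cell-cycle genes outside the locus, 10 of 12 had a start peak in all 8 lists, against 57.6% of 15843 protein-coding genes. CDKN1C and CCND2 had none in any list. CDKN1C, CCND1, CCND2 and IFNAR2 (below) were not in the promoter table and were read at either gene end. In each line 6 of the 12 had fewer peaks within 50 kb with ACBI1. CDKN1A, which encodes the inhibitor p21, had 7 and 6 peaks in H1975 with DMSO and 2 and 1 with ACBI1, and 6, 5, 1 and 1 in HCC44. All 10 genes of methionine salvage and its partner PRMT5 had a start peak in all 8 lists, against the same 57.6%. Among them 3 had fewer peaks within 50 kb with ACBI1 in H1975 and 5 in HCC44. SRM, the spermidine synthase gene, had more in HCC44. Of 7 interferon and receptor genes outside the locus only IFNAR1 and IFNAR2 had a start peak, in all 8 lists. IFNK, IFNL1, IFNL2, IFNL3 and IFNG had none in any list, as did 30.4% of protein-coding genes. Fewer peaks within 50 kb with ACBI1 were found for 1 of the 7 in H1975 and for 5 in HCC44.

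Regions were then followed within a line, where regions present in both DMSO lists and in neither ACBI1 list were counted as lost, those in the reverse case as gained, and those with a peak in all 4 as retained. Of the 26 regions of the window in both H1975 DMSO lists 6 were lost (23.1%), against 37.2% of the 38312 such regions in the genome, and 16 were retained. Of the 48 in both HCC44 DMSO lists 23 were lost (47.9%), against 49.2% of 45137, and 21 were retained. With lists of equal length 1 region was lost in H1975 and 5 in HCC44, and 10 were retained in HCC44. The H1975 count was 11 without DMSO 2 and 10 without ACBI1 1, and the HCC44 count was 15 at a fold enrichment of at least 5, where 5 were retained.

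All of the lost regions lay away from protein-coding starts. At the starts 0 of 7 regions were lost in either line, where 2.99% (H1975) and 5.73% (HCC44) of all such regions were, and away from them 6 of 19 were lost in H1975 (31.6%, against 48.7% of all such regions) and 23 of 41 in HCC44 (56.1%, against 61.2%). In HCC44 the lost regions had a median width of 556 bp and a median percentile of 42.6 with DMSO, and the 13 retained regions away from any annotated start had 1150 bp and 59.9. In H1975 the corresponding percentiles were 43.2 for the 6 lost regions and 63.0 for the 8 retained ones. Gains were rare. None of the 16 regions in both ACBI1 lists of H1975 was gained, against 3.07%, and 1 of 23 was in HCC44, against 5.89%. That one, chr9:22243728-22244898, lay between CDKN2B-AS1 and DMRTA1, and was also in the list of H1975 ACBI1 1. The count of gains in HCC44 was 0 at a −log10 q of at least 20, 5 with lists of equal length, 2 when a peak had to cover 50% of a region, 4 without ACBI1 1, 4 without ACBI1 2 and 2 without DMSO 1, and in H1975 it was 2 without ACBI1 2.

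A set of 4 regions was lost in both lines. Across the genome 37.2% of regions were lost in H1975 and 49.2% in HCC44, and no genome share for loss in both is given here. With lists of equal length only 1 region of the window was lost in H1975 and 5 in HCC44, so the set depends on list length. The 4 regions were chr9:21294365-21294792, between IFNA14 and IFNA5 in the body of the non-coding gene LOC107987053, chr9:21616094-21616693, between MIR31HG and MTAP, chr9:22052405-22053208, in the body of CDKN2B-AS1, and chr9:22395645-22396318, 50.5 kb before DMRTA1. The region in CDKN2B-AS1 had been among the stronger ones with DMSO, at percentiles of 69.7 and 70.4 (H1975) and of 68.9 and 71.8 (HCC44). The region between MIR31HG and MTAP stood at 86.8 and 80.6 in HCC44 with DMSO and at 49.3 and 35.1 in H1975. A further 2 regions were lost in H1975 and retained in HCC44, chr9:22117527-22119737 at the far end of CDKN2B-AS1 and chr9:22147707-22148826 beyond it. No test of that difference between lines was made.

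CDKN2B-AS1 is a non-coding RNA gene known from association studies of many diseases. Of the 13 regions that overlapped its body, the H1975 DMSO lists held 7 and 6 and the ACBI1 lists 4 and 3. In HCC44 the DMSO lists held 9 and 11 and the ACBI1 lists 5 and 4. The groups were separate in both lines, but the whole lists were also shorter with ACBI1, by 41.1% (H1975) and 49.0% (HCC44). Counts within 50 kb separated in this direction for 43.4% (H1975) and 55.3% (HCC44) of protein-coding genes. No such share is given here for counts in gene bodies, so the separation does not set CDKN2B-AS1 apart. The regions present in all 8 lists were the peaks at its own start and at the CDKN2B start and chr9:22102831-22104113 within the body.

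In all, 14 of 69 regions had a peak in all 8 lists and 18 were in a single list. No genome share is given here for the counts of this paragraph, so they describe the window alone. Of the 14, 8 were at a start (HACD4, KLHL9, MIR31HG, MTAP, both CDKN2A starts, CDKN2B and DMRTA1) and 6 were away from one. Those away from a start were chr9:21576037-21576907, chr9:21591476-21592328 and chr9:21684673-21685394 between MIR31HG and MTAP, chr9:21812322-21814010 in the MTAP body, chr9:21964975-21966381, which lies 1.37 kb past the end of CDKN2A, and chr9:22102831-22104113 in the CDKN2B-AS1 body.

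HCC44 held more of the window's regions than H1975. The ratio of mean peak numbers in the window was 1.80 with DMSO and 1.46 with ACBI1, where that of the lists was 1.19 and 1.03. HCC44 exceeded H1975 by 23.5 peaks with DMSO (pooled SD 2.69; exact permutation p = 0.333), by 9 with ACBI1 (pooled SD 3.54; exact permutation p = 0.333) and by 16.25 over both (pooled SD 3.14; exact permutation p = 0.0556, the smallest possible). The median number of peaks in windows of the same length, over the 1895 windows of the genome that held a peak in any list, was 19, 17, 10 and 7 in the H1975 lists and 23, 22, 10 and 9 in the HCC44 lists. At a −log10 q of at least 20 the difference was 15 with DMSO, 3 with ACBI1 and 9 over both treatments. At a fold enrichment of at least 5 it was 4 with DMSO, −5 with ACBI1 and −0.5 over both, so the direction turned in the last 2. The fold threshold falls unevenly on the lists: the CDKN2B start peak had fold enrichments of 10.8, 12.0, 10.5 and 12.6 in the H1975 lists, and of 7.56, 6.92, 6.89 and 6.11 in those of HCC44. At each of the 6 starts of the members with start peaks all H1975 values were above all HCC44 values. With lists of equal length the difference was 1 with DMSO, 7 with ACBI1 and 4 over both, and with ACBI1 it was 5.5 without H1975 ACBI1 2.

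A comparison region by region gave the same order. With DMSO 18 of 48 regions were held by both HCC44 lists and no H1975 list (37.5%, against 24.4% across the genome), none by H1975 alone (against 12.7%), and 26 by both lines. With ACBI1 5 of 25 regions were of HCC44 alone (20%, against 14.7%), none of H1975 alone (against 13.9%), and 14 of both. The HCC44 regions with DMSO numbered 10 at a −log10 q of at least 20, 11 at a fold enrichment of at least 5 and 3 with lists of equal length, and those of H1975 numbered 10 and 4 under the last 2 settings and 3 without H1975 DMSO 2. With ACBI1 the HCC44 regions numbered 3 at the q threshold, 1 at the fold threshold, 9 without H1975 ACBI1 1, 9 without HCC44 ACBI1 1 and 10 without HCC44 ACBI1 2. The H1975 regions with ACBI1 numbered 3 at the q threshold, 6 at the fold threshold, 2 with lists of equal length, 3 without H1975 ACBI1 2 and 1 without either of the HCC44 ACBI1 lists in turn. The excess of HCC44 regions thus depended on which peaks of a list were kept.

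Regions of HCC44 alone were most often assigned to MTAP, which also has the longest body of the members (138480 bp). Of the 18 with DMSO 7 were assigned to MTAP, 4 to CDKN2B, 2 to IFNE, 2 to DMRTA1 and 1 each to IFNB1, IFNW1 and KLHL9. In the MTAP body 4 were found, chr9:21854277-21854926, chr9:21863588-21864009, chr9:21873757-21874114 and chr9:21919661-21920179. All 4 were lost with ACBI1, and the gene body held 8 and 8 peaks in HCC44 with DMSO, 3 and 2 with ACBI1, and 4, 3, 3 and 3 in H1975. Of all 18 such regions 14 were lost in HCC44 (77.8%, against 71.4% across the genome) and 2 were retained, chr9:21687498-21688961 before MTAP and chr9:22158362-22159511 beyond CDKN2B-AS1. Of the 26 regions of both lines with DMSO 6 were lost in HCC44 (23.1%, against 37.7%). These comparisons use the same HCC44 DMSO lists to choose and to follow the regions, and no test was made.

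**Figure D4:**
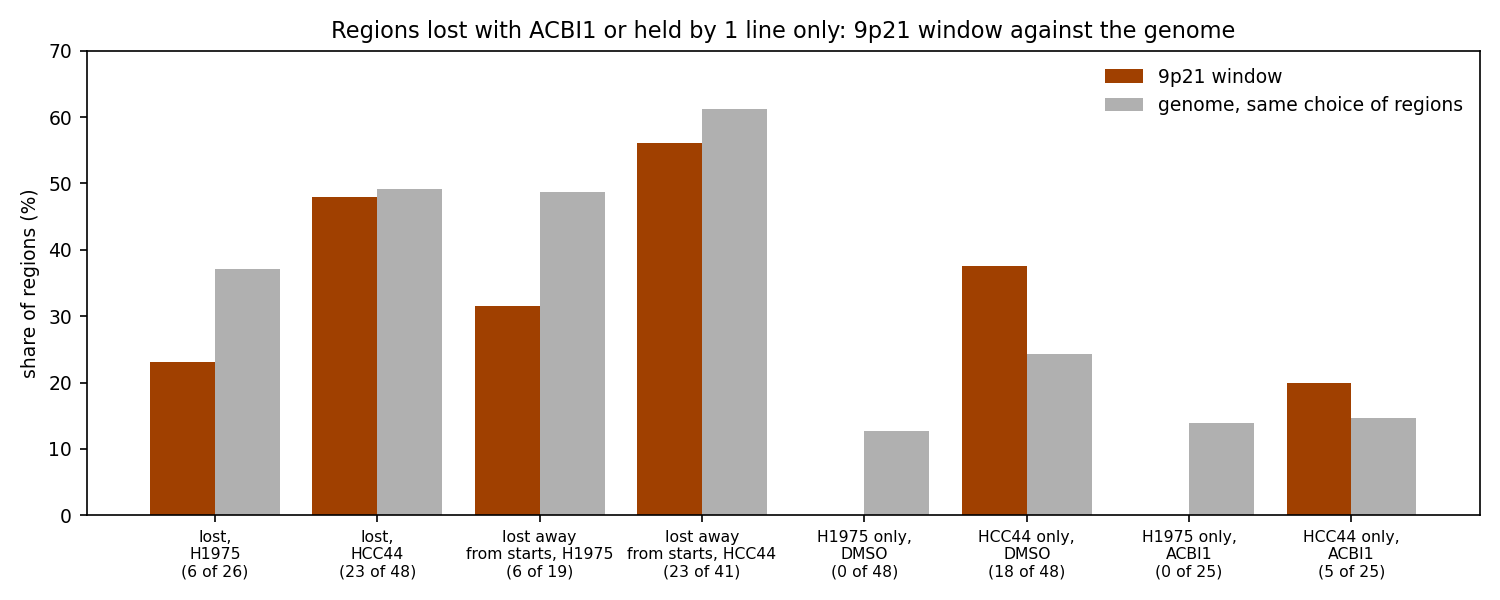
Share of regions (vertical axis, %) lost with ACBI1 or held by 1 line only, in the window (brown bars) and in the genome (grey bars), with the counts of the window under each pair. Shares lost are of regions in both DMSO lists of the line, and shares of 1 line only are of regions in both lists of at least 1 line under that treatment. The HCC44 share lost is 47.9% in the window and 49.2% in the genome, and the share held by HCC44 alone with DMSO is 37.5% and 24.4%.

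The interferon genes lay in long stretches without a listed peak, which differed between the lines. In H1975 no list had a peak in chr9:21070504-21294375, a stretch of 224 kb with 9 interferon genes from IFNB1 to IFNA14, or in chr9:21335549-21549287, 214 kb with the 6 genes IFNA6, IFNA13, IFNA2, IFNA8, IFNA1 and IFNE. Stretches at least as long made up 4.35% and 4.56% of the 48371 stretches between neighbouring H1975 peaks. These percentages count stretches and not bases. Long stretches cover a larger part of the genome than that, so the values do not say how often a gene lies in one. HCC44 lists had 3, 3, 3 and 0 peaks wholly inside the former and 1, 2, 2 and 4 wholly inside the latter (DMSO 1 and 2, then ACBI1 1 and 2). Of 10293 windows of the latter length with any peak, 211 (2.05%) had peaks in all 4 HCC44 lists and none in H1975, and 160 had the reverse. In HCC44 the longest stretch was 97.2 kb, between CDKN2B-AS1 and DMRTA1 (183 kb with lists of equal length), and one of 81.3 kb held 6 genes from IFNA21 to IFNA17. Stretches at least as long made up 8.47% and 10.6% of the 58413 stretches between neighbouring HCC44 peaks. The 214 kb stretch was chosen for its absence of peaks in H1975, so the share of 2.05% is a description.

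The labelled cell type was checked against markers in the same lists. Of 6 epithelial markers, EPCAM, KRT7, KRT8, KRT18 and KRT19 had a start peak in all 8 lists and CDH1 in 7. NKX2-1, a lung lineage factor, had one in all 4 H1975 lists and in 1 HCC44 list, SFTPC in all 8 lists and SFTPB in none. Of markers of other cell types, CD14 and COL1A1 had one in all 8 lists, CD3E in 3, PDGFRB in 1, and PTPRC, PECAM1, VWF and DCN in none. EPCAM, CDH1, KRT7, KRT18, KRT19, SFTPC, CD3E, COL1A1, PECAM1, VWF and DCN were not in the promoter table and were read at either gene end. For these genes a peak counted as a start peak may lie at the far end. Of protein-coding genes in that table, 57.6% had a start peak in all 8 lists and 30.4% had none in any. A start peak does not measure expression.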

How the data were processed

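ATAC-seq peak lists of 8 samples were used, each sample with a broadPeak list of its own and no header; replicates were not pooled for peak calling. The authors aligned reads with BWA to hg38, per the submitters' processing notes; the peak caller and filters are not given in the sources used here. The fold enrichment of each peak is the authors' ratio, and its p and q were deposited as −log10 values, of which the lowest q value was 10.0 to 10.2 in every list. The authors' score was not used. Depth in reads is unknown. Genes, starts and promoter sequences came from RefSeq tables of GRCh38.p14, and the 5′ end of a gene was added as a start for 1274 genes whose listed starts lay further inside. The members, gene lists and tests were chosen with earlier results of these data known. Named were all members, the listed gene sets, and regions at starts, lost, gained, in all lists or in 1 line only. Counts per sample were compared by exact permutation tests, two-sided, within line or treatment. Each p is the share of label arrangements of these samples that gave a difference at least as large in size. A marker gene of the fixed lists is not reported here. Merging and tests were tested on simulated data. Alternatives covered peak strength, list length, merging, overlap, flank, start window and leaving out each list. Python 3.11.15, numpy 2.4.6, pandas 2.3.3, scipy 1.17.1 and matplotlib 3.10.9 were used.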

Additional observations from a re-analysis of the deposited data

How the results depend on the processing

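Of 115 values for 20 results under other settings, 91 kept their direction (differences in peak number, none of them past a threshold) or stayed within 1.5 times (other counts and lengths), as did 75 of 88 with a list left out. Differences that kept their direction still changed in size: HCC44 minus H1975 with DMSO, 23.5, was 15 at the q minimum, 4 at the fold minimum and 1 in lists of equal length, and ACBI1 minus DMSO in H1975, −10, was −2.5 in lists of equal length. With a −log10 q of at least 20, gained regions in HCC44 numbered 0, HCC44-only regions 10 with DMSO and 3 with ACBI1, and H1975-only regions 3 with ACBI1. With a fold enrichment of at least 5, HCC44 minus H1975 turned to −5 with ACBI1 and −0.5 over both treatments, lost and retained regions in HCC44 numbered 15 and 5, H1975-only regions 10 with DMSO and 6 with ACBI1, HCC44-only regions 11 and 1, and 3 members had a start peak in every HCC44 list. With 22133 peaks per list, ACBI1 minus DMSO turned to 3.5 in HCC44 and 0.5 over both lines, lost regions numbered 1 in H1975 and 5 in HCC44, gained and retained regions in HCC44 5 and 10, H1975-only regions 4 with DMSO and 2 with ACBI1, HCC44-only regions with DMSO 3, and the longest HCC44 stretch was 183 kb. With peaks covering at least 50% of a region, 2 regions were gained in HCC44. Leaving out each list in turn gave 6 to 11 lost and 0 to 2 gained regions in H1975, 1 to 4 gained regions in HCC44, 0 to 3 H1975-only regions with DMSO and with ACBI1, and 5 to 10 HCC44-only regions with ACBI1. With the replicate number as a block, differences between treatments stayed at −10, −24.5 and −17.25 by construction, with exact permutation p of 0.5, 0.5 and 0.125, the smallest possible. Same-numbered lists deviated together with r = 0.33 in H1975 and 0.17 in HCC44 over retained regions, but 2 pairs per line do not establish a pairing. Depth limits what is listed: a region without a peak was not listed, which is not evidence that it was closed.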
